A study of Homo sapiens with 12 samples.

Results

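The DIRAS GTPases (DIRAS1, DIRAS2 and DIRAS3) and the ARAP regulators (ARAP1, ARAP2 and ARAP3) were examined in K562 cells, a human chronic myeloid leukemia line, with and without depletion of the Polycomb factor PHF19. These 6 genes were found by symbol among the 27348 genes of the RNA-seq table. DIRAS1 and ARAP3 were chosen by their fold changes in the authors' own comparison of PHF19-depleted with control cells, and the other members were taken as their paralogs. The values of that comparison are not used here, so the text describes the RNA level over all libraries and the binding of PHF19 and MTF2. All cells were K562 cells infected with a pLKO.1 lentivirus and selected with puromycin. They carried either the empty vector (shCT) or 1 of a pair of shRNAs against the long isoform of PHF19 (sh1 and sh2). RNA-seq comprised 6 libraries, 2 for each group. ChIP-seq comprised 6 libraries, 1 for each condition, with fly chromatin as spike-in, and 3 peak lists were analysed. These were PHF19 and MTF2 in shCT cells, and MTF2 again in sh2 cells.

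DIRAS proteins are small GTPases of the Ras family. They lack the growth-promoting activity of classical Ras proteins and are known as inhibitors of cell growth. DIRAS1 binds SmgGDS, an exchange factor for other small GTPases, DIRAS2 is best known from brain, and DIRAS3 (also ARHI) is an imprinted gene expressed from the paternal allele. ARAP proteins switch small GTPases off. Each joins an Arf GTPase-activating domain to ankyrin repeats and pleckstrin homology domains, and Arf proteins direct membrane traffic. ARAP1 acts in endocytic traffic of receptors, and ARAP3 is an effector of PI3 kinase that acts on ARF6. PHF19 and MTF2 are related Polycomb-like proteins that bring PRC2, the complex that methylates histone H3 for gene repression, to DNA rich in CG dinucleotides.

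The cells carried the RNA of their lineage. Of 8 markers of K562 cells examined, KLF1, a red cell transcription factor, had the lowest mean normalized count over the libraries, 4463. Of the markers of other blood cells, those of monocytes (CD14 and CSF1R) were under 10, MS4A1 of B cells was listed at 0, and CD3D, a T cell receptor chain, reached 962. PHF19 itself had a mean normalized count of 7797 and MTF2 one of 2797, as the authors' means over all libraries. No value per library was used, so the depletion of PHF19 was not checked in each sample, no depth is known, and no level below has a spread or a test.

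ARAP1 and DIRAS1 were the most abundant of the 6 RNAs. ARAP1 had a mean normalized count of 2248, above 83.5% of the genes that were not listed at 0. DIRAS1 had 524, above 61.7% of those genes. ARAP3 followed with 264 and DIRAS3 with 71.5, whereas ARAP2 had only 22.9. DIRAS2 was listed at 0, as were 6096 of the 27348 genes (22.3%), while housekeeping genes such as ACTB and GAPDH had means of 52005 and 94843. These values are means over shCT, sh1 and sh2 together, and so do not show in which cells a gene was higher.

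Since the genes differ in length, levels between genes were compared per kilobase of exon. On this scale ARAP1 had 248 normalized counts per kb, DIRAS1 152, ARAP3 42.6, DIRAS3 27.0 and ARAP2 1.84, against a median of 9.92 over the 23043 genes placed on the genome. Within the DIRAS family, DIRAS1 was thus 5.64-fold above DIRAS3, and DIRAS2 was listed at 0. Within the ARAP family, ARAP3 lay in the middle, 5.82-fold below ARAP1 and 23.2-fold above ARAP2. DIRAS1 and ARAP3 therefore did not hold the same place among their paralogs, since DIRAS1 was the highest of its family and ARAP3 was not. Both were chosen by fold changes from the same libraries that these means cover, so their places are not independent of that choice. With no error on these means, whether neighbours in this order differ beyond the spread between libraries cannot be told.

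**Figure D1:**
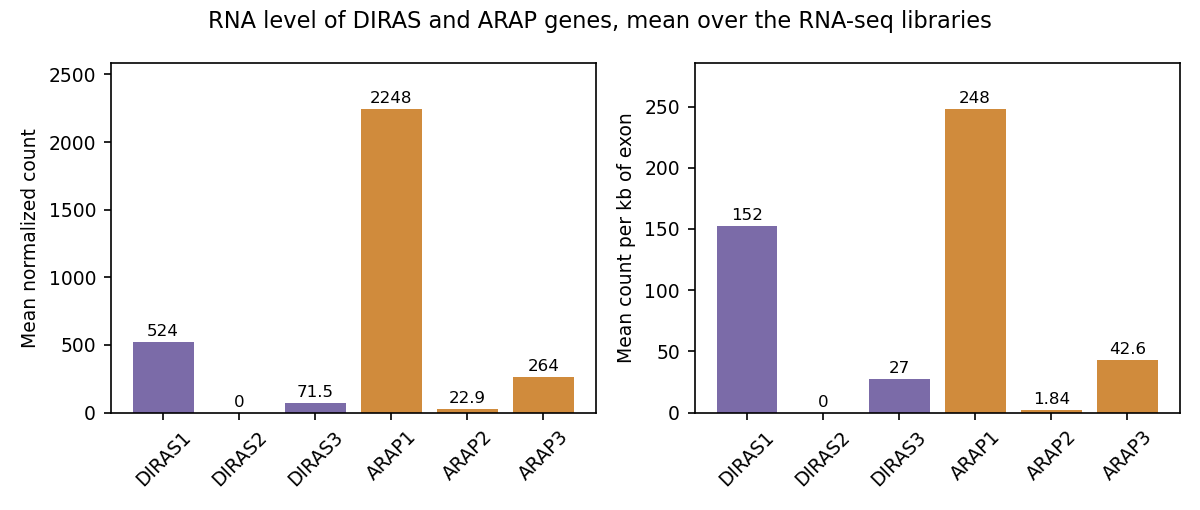
RNA levels of the 6 genes, as the authors' mean normalized count over the RNA-seq libraries (left) and the same per kb of exon (right). Purple bars are DIRAS genes and orange bars ARAP genes. ARAP1 (2248) and DIRAS1 (524) stand above their paralogs on both scales, and DIRAS2 is listed at 0.

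Some of these genes overlap other genes in the GENCODE annotation, while the authors counted reads on RefSeq exons. Whether any reads were shared was not examined. Exons of ARAP1 overlap those of STARD10, a lipid transfer protein gene on the same strand, over 725 bp (8.01% of the ARAP1 exon length), and STARD10 had a mean normalized count of 478. Exons of DIRAS1 overlap those of an unnamed gene on the same strand over 107 bp. ARAP1 also has antisense partners, ARAP1-AS1 and ARAP1-AS2, over 385 and 183 bp of exon. DIRAS3 lies inside GNG12-AS1 on the opposite strand with no shared exon, and GNG12-AS1 was listed at 0. Whether the counting used strand is not given in the sources used here, so reads from a gene and its antisense partner cannot be told apart.

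No PHF19 peak lay at any of the 6 genes, from 2.5 kb upstream of the outermost transcription start site (TSS) to the transcript end. The PHF19 list held 5621 peaks, and 10.3% of the placed genes had at least 1 of them. In the same way 0 of the 6 genes had an MTF2 peak in shCT cells, against 13.6% of all placed genes in a list of 12502 peaks. In sh2 cells 1 of the 6 genes, DIRAS2, had an MTF2 peak, against 18.2% of all placed genes in a list of 18287 peaks. With 6 genes, these counts are near what the whole table gives, and nothing particular to the families is read from them. DIRAS1 and ARAP3 had no peak in any of the 3 lists, and in this they did not differ from DIRAS3, ARAP1 and ARAP2. Track headings in the PHF19 list and in the sh2 list name a hairpin sh4, which the labels do not, and the labels were followed. A peak list holds only sites that passed the caller, and so a gene without a peak may still bind below that limit.

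The peak of DIRAS2 lay over its start. On GRCh37 it ran from 93404085 to 93405737 on chromosome 9 (1653 bp) and covered the outermost TSS at 93405144 on the minus strand. Of its length, 593 bp lay upstream of the gene, 111 bp in an exon and 949 bp in an intron. Its score was 125 (125.31), above the median of 112 (111.95) of the list, and it ranked 8247 of 18287. No peak of the shCT lists overlapped it. The nearest PHF19 peak lay 781 kb from the TSS, in the region of NFIL3, and the nearest MTF2 peak of shCT cells 854 kb away.

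An MTF2 peak found in sh2 cells alone was common in these lists. Of the 18287 peaks in sh2 cells, 9099 (49.8%) overlapped no peak of either shCT list. At the level of genes, 4.64% of those placed had an MTF2 peak in sh2 cells and none in the other lists, as DIRAS2 did. Among the 2136 such peaks within 2.5 kb of a TSS, that of DIRAS2 ranked 544 by score, above 74.5% of them and above their median of 82.2. Among all 5447 MTF2 peaks of sh2 cells within 2.5 kb of a TSS it lay below the median of 158, with 42.1% of them scoring lower. The sh2 list was also longer as a whole, covering 63.2 Mb against 29.0 Mb in shCT cells, with a median peak width of 2598 bp against 1780 bp. With 1 library for each condition and no signal in the lists, a difference in binding at DIRAS2 was not tested.

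**Figure D2:**
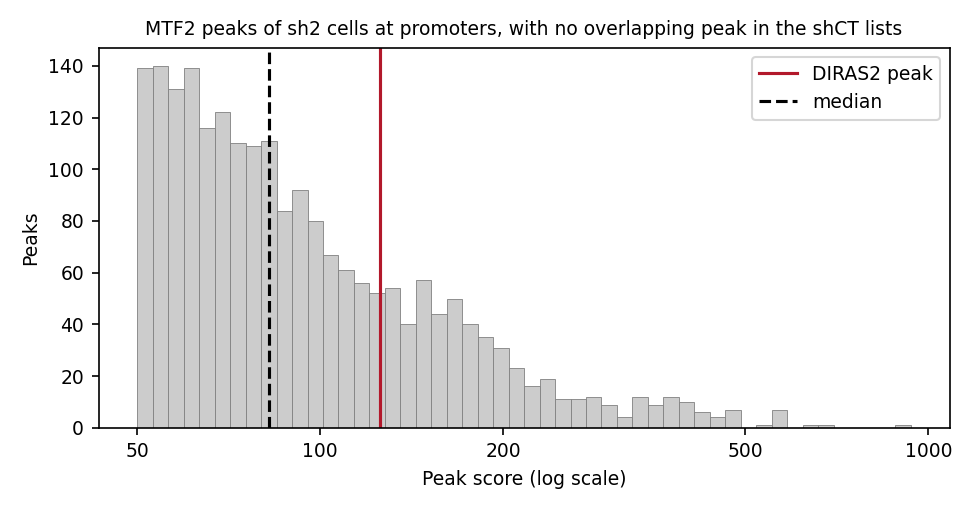
Scores of the 2136 MTF2 peaks of sh2 cells that lie within 2.5 kb of a TSS and overlap no peak of the shCT lists, with score on a log axis and number of peaks on the other. The red line is the DIRAS2 peak (125.31) and the dashed line the median (82.2).

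The promoters show how the DNA under the DIRAS2 peak compares with that of paralogs that had no peak. RefSeq promoters of 300 bases, 250 before and 50 after the start, were found for DIRAS2, DIRAS3, ARAP1 and ARAP3 in a table on GRCh38.p14, and each matched GRCh37 at 1 place. DIRAS1 and ARAP2 had no entry. Each sequence below reads 5′ to 3′ on the strand of the gene (minus), with CG dinucleotides in capitals. DIRAS2 (chr9:93405057-93405356) is shown for its peak, ARAP3 (chr5:141061748-141062047) as a CG-rich promoter without a peak, and ARAP1 (chr11:72433336-72433635) as a CG-poor one. The ARAP1 window lies inside the gene, whose outermost TSS is at 72504644. The DIRAS3 window (68516261 to 68516560, not shown) also lies inside its gene, whose outermost TSS is at 68517400. The sequences at these outermost TSSs of ARAP1 and DIRAS3 were not examined.
DIRAS2: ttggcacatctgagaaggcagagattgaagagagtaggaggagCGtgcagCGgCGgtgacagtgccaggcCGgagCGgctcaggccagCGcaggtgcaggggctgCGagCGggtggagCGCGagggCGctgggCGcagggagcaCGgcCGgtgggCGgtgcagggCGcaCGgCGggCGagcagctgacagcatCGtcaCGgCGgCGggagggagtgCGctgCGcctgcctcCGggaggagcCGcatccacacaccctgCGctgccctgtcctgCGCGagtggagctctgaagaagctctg
ARAP3: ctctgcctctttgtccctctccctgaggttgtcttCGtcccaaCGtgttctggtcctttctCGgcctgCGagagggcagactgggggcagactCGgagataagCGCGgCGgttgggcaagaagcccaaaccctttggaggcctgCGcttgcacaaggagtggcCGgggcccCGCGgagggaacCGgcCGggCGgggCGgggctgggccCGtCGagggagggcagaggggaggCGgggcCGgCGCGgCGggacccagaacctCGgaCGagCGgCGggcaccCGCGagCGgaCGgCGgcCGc
ARAP1: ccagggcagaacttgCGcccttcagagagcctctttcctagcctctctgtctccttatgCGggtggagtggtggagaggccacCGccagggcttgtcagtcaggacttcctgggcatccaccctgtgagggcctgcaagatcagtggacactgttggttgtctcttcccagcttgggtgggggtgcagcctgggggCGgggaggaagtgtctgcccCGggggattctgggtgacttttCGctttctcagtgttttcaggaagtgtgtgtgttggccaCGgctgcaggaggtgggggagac

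The DIRAS2 promoter held 30 CG dinucleotides in its 300 bases, all of them under the MTF2 peak of sh2 cells. Of all 27305 promoters of that length in the table, 22.1% held as many or more. ARAP3 held 33 (16.9% of promoters held as many or more). DIRAS3, at a start inside the gene, held 21 (39.5%). No peak of the 3 lists covered a base of either promoter. The ARAP1 window, at a start inside the gene, held 7, against a median of 14 for all promoters. The ratio of observed to expected CG was 0.84 for DIRAS2, 0.85 for DIRAS3 and 0.86 for ARAP3, but 0.26 for ARAP1. The letters GCG were counted on both strands, leaving out a match that overlapped an earlier one on the same strand. So counted, they occurred 30 times in DIRAS2, which 8.79% of all promoters matched or passed. They occurred 21 times in each of ARAP3 and DIRAS3 (24.1% of promoters held as many or more) and 6 times in ARAP1 (55.4%), and 84.4% of all promoters held at least 1.

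**Figure D3:**
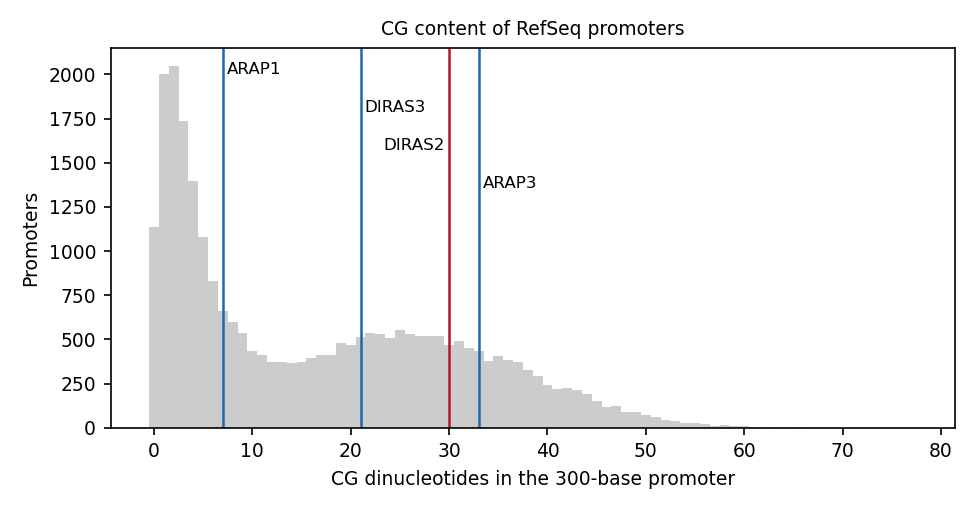
Number of CG dinucleotides in each of 27305 RefSeq promoters of 300 bases (grey, number of promoters on the vertical axis). Vertical lines mark ARAP1 (7, at a start inside the gene), DIRAS3 (21, at a start inside the gene), DIRAS2 (30, red, under an MTF2 peak of sh2 cells) and ARAP3 (33, no peak).

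Over its whole length the DIRAS2 peak had 62 CG dinucleotides, or 3.75 per 100 bases against a median of 2.01 over the sh2 list. Its observed to expected ratio of 0.64 was above that of 93.01% of the peaks in the list, whereas its GC content of 48.6% was above that of only 33.0% of them. Only 5447 of the 18287 peaks in the list lay within 2.5 kb of a TSS, as this one did. No comparison with those alone was made.

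Beyond the genes themselves, peaks lay within 50 kb of DIRAS1 and ARAP1 in all 3 lists. For PHF19 in shCT cells 2 of the 6 genes had a peak in this window, against 26.2% of placed genes. For MTF2 in shCT cells the same 2 had one, against 32.1%. For MTF2 in sh2 cells 4 of the 6 had one (DIRAS1, DIRAS2, ARAP1 and ARAP3), against 39.8%. DIRAS3 and ARAP2 had none in any list. The window was set after the peaks near the genes were seen.

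**Figure D4:**
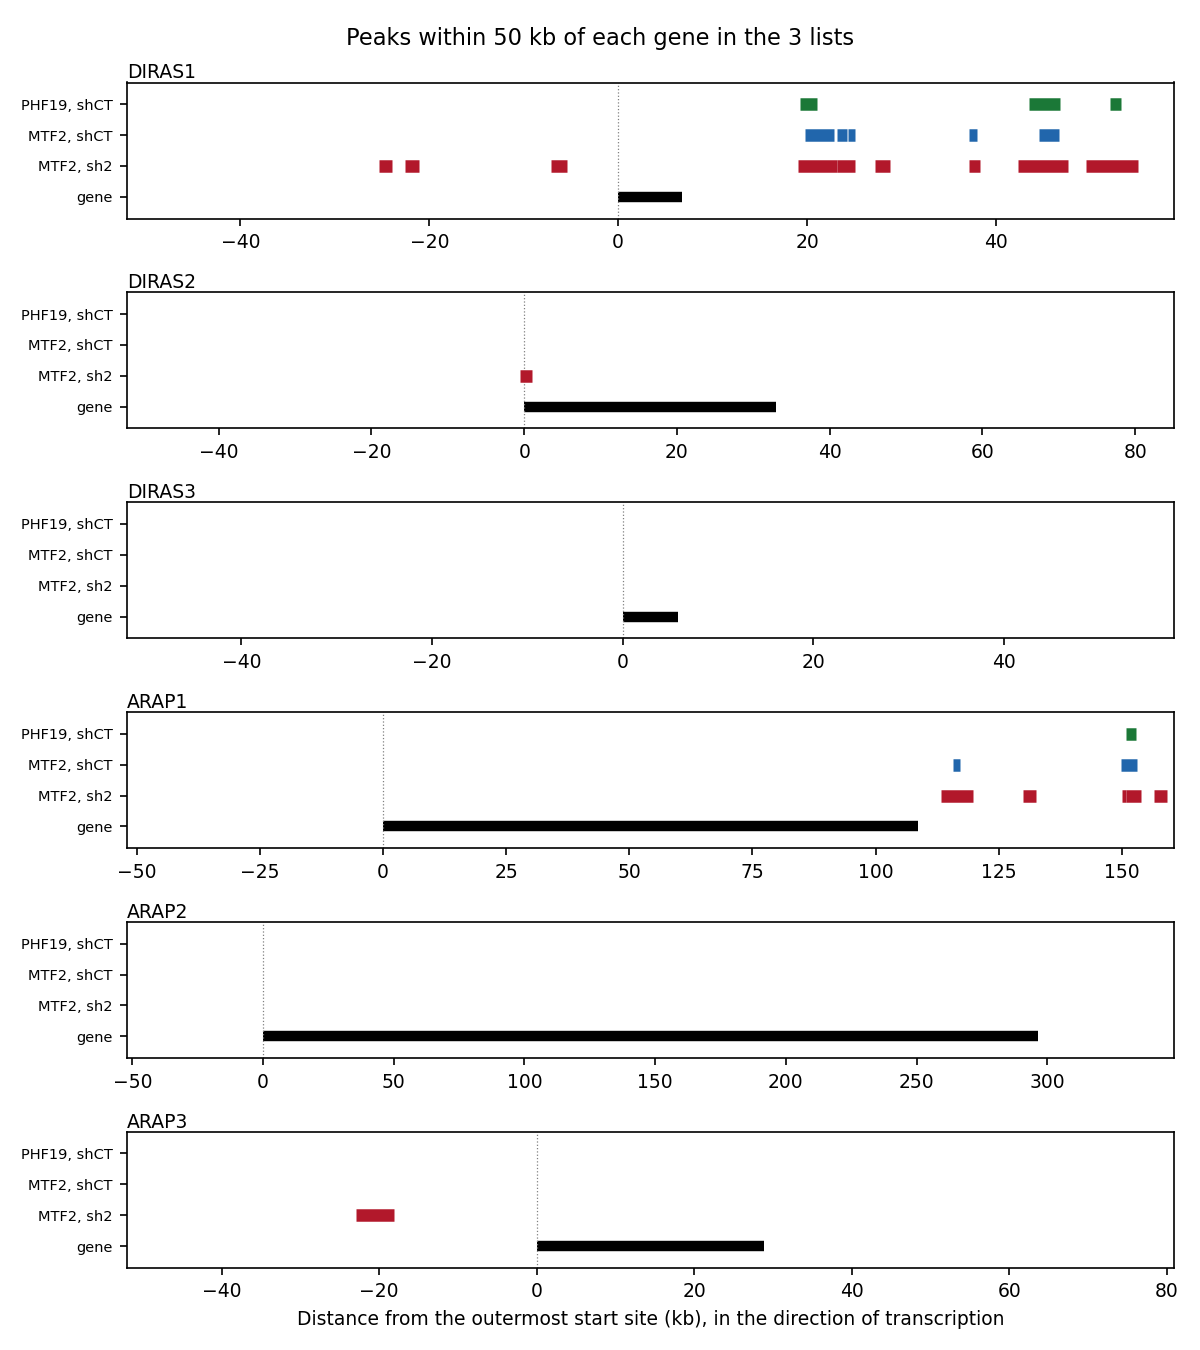
Peaks within 50 kb of each gene, drawn by distance in kb from the outermost start site in the direction of transcription. Black bars are genes, and colored bars are peaks of PHF19 in shCT cells (green), MTF2 in shCT cells (blue) and MTF2 in sh2 cells (red). DIRAS1 has 3, 5 and 9 peaks in these lists and none in the gene, while DIRAS2 has 1 red peak over its start.

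DIRAS1 lay beside a bound neighbour. It spans 2714565 to 2721370 on GRCh37 chromosome 19, minus strand, and its window held 3 PHF19 peaks, 5 MTF2 peaks in shCT cells and 9 in sh2 cells. All 3 PHF19 peaks and all 5 MTF2 peaks of shCT cells lay downstream of DIRAS1, in GNG7, which encodes a gamma subunit of heterotrimeric G proteins and starts 11.9 kb beyond the end of DIRAS1. The nearest PHF19 peak, from 2700275 to 2702090 (score 130.00, rank 949 of 5621), ended 602 bp inside the GNG7 start and lay 19.3 kb from the TSS of DIRAS1. It overlapped an MTF2 peak in both shCT and sh2 cells. Of the 9 MTF2 peaks in sh2 cells, 6 lay in GNG7 and the other 3 upstream of DIRAS1, the nearest of them from 2726826 to 2728434 (score 104.30, rank 9736 of 18287), 5.46 kb from its TSS. These 3 upstream peaks overlapped no peak of the shCT lists, as held for 49.8% of all sh2 peaks. Their scores of 104.30, 54.70 and 79.68 were all below the list median of 111.95. GNG7 had a mean normalized count of 40.2.

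ARAP1 spans 72396114 to 72504644 on chromosome 11, minus strand, and the peaks in its window also lay past its end. The PHF19 peak, both MTF2 peaks of shCT cells and all 5 of sh2 cells fell in the region of PDE2A, a cyclic nucleotide phosphodiesterase gene with a mean normalized count of 9.11. The PHF19 peak (72351824 to 72353845, score 110.61) lay 42.3 kb beyond the end of ARAP1. The nearest MTF2 peak, from 72384826 to 72391428 in sh2 cells (score 424.32), was 6603 bp wide and lay 4.69 kb beyond that end, and an MTF2 peak of shCT cells within it (72387433 to 72388872) was 1440 bp wide with a score of 76.04. Scores of different lists come from different libraries and were not compared. The RefSeq promoter of ARAP1 lies inside the longest annotated gene, 41.9 kb from that sh2 peak.

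ARAP3 spans 141032968 to 141061797 on chromosome 5, minus strand. A single MTF2 peak of sh2 cells, from 141079857 to 141084767 (4911 bp, score 236.14, rank 4404 of 18287), lay 18.1 kb upstream of its TSS, in the region of no placed gene. It overlapped no peak of the shCT lists, in which the nearest peaks lay 76.1 kb (MTF2) and 155 kb (PHF19) from the TSS. Its observed to expected CG ratio was 0.36, near the median of 0.32 of the sh2 list and below the 0.64 of the DIRAS2 peak.

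DIRAS3, from 68511569 to 68517400 on chromosome 1, had its nearest PHF19 peak 217 kb from the TSS, at the start of GNG12 and GNG12-AS1. Its nearest MTF2 peaks lay 180 kb away in shCT cells and 179 kb away in sh2 cells, both at WLS, which encodes a carrier of Wnt proteins. ARAP2, from 35949843 to 36246136 on chromosome 4, lay 1660 kb from a PHF19 peak and 1645 and 1644 kb from MTF2 peaks in shCT and sh2 cells, all in the region of TBC1D1, a Rab GTPase-activating protein. Of all placed genes, 85.3% were nearer than ARAP2 to a PHF19 peak, while only 13.6% were nearer than DIRAS1. The median over all genes was 222 kb for PHF19, 158 kb for MTF2 in shCT cells and 111 kb for MTF2 in sh2 cells.

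**Figure D5:**
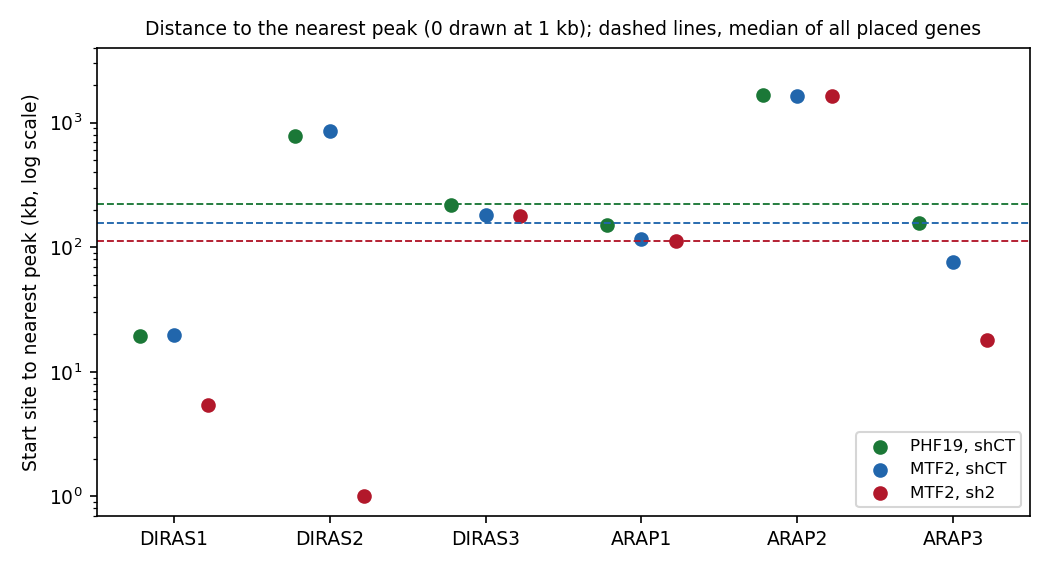
Distance in kb (log axis) from the outermost TSS of each gene to the nearest peak of each list, with the median of all placed genes as dashed lines in the same colors. DIRAS2 (0 kb, drawn at 1 kb) and DIRAS1 (5.46 kb) lie closest to MTF2 peaks of sh2 cells, and ARAP2 lies 1644 kb or more from a peak of each list.

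Relatives of both families were looked at in the same way. Of 33 other Ras-subfamily GTPases, 3 had a PHF19 peak (9.09%), 6 had an MTF2 peak in shCT cells (18.2%) and 8 in sh2 cells (24.2%). The shares over all placed genes were 10.3%, 13.6% and 18.2%. RRAD, which restrains calcium channels, had a peak in all 3 lists, its PHF19 peak having a score of 90.40. NKIRAS1, an inhibitor of NF-kB signaling, and RASL11A had a PHF19 peak with scores of 65.74 and 53.41 and no MTF2 peak. Both PHF19 peaks scored below the list median of 72.28, at ranks 3348 and 4974 of 5621. The authors' minimum on tags was not applied to them. GEM, a relative of RRAD, and RASL12 had an MTF2 peak in sh2 cells and no peak in the other lists, as DIRAS2 did (GEM and RASL12 were named after their values were seen). The 8 genes with an MTF2 peak in sh2 cells had mean normalized counts from 0.325 (RASL12) to 34.8 (RRAD), whereas 17 of the 33 had a mean of 100 or more. DIRAS2, listed at 0, lay below that range.

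Of 20 other Arf GTPase-activating proteins, 6 had a PHF19 peak (30.0%), and 5 had an MTF2 peak in each of shCT and sh2 cells (25.0%), against the same 10.3%, 13.6% and 18.2% over all placed genes. These shares are descriptions with no test. ASAP2, a paxillin-binding Arf regulator, had the strongest PHF19 peak of these genes, with a score of 262.17 and rank 216 of 5621. ADAP2 and AGAP2 had scores of 108.76 and 100.59. ADAP1 had one of 67.83 and GIT2 one of 57.04 (rank 4410), both below the PHF19 list median of 72.28. The remaining gene, ASAP1, had a still lower score, 55.15, with no PHF19 peak at its promoter. The authors' minimum on tags was not applied to any of these peaks. GIT2 had no MTF2 peak, and the others had one in both lists.

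Over the whole table, the share of genes with an MTF2 peak in sh2 cells varied between classes of RNA level. It was 18.8% of the 4635 placed genes listed at 0, the class of DIRAS2 (exact binomial 95% interval 17.70 to 19.97%). It was highest, 32.7%, among the 5162 genes with means above 0 and under 10, a class that held none of the 6 genes. It was 29.4% of genes with means from 10 to 100, the class of DIRAS3 and ARAP2, 11.7% from 100 to 1000, that of DIRAS1 and ARAP3, and 4.07% at 1000 or more, that of ARAP1. The intervals cover counting error only, and the share is a description with no test.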

How the data were processed

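RNA-seq of 6 K562 libraries and ChIP-seq of 6 were grouped by their labels. For RNA-seq, the authors mapped reads to hg19 with TopHat, counted them on RefSeq exons and deposited a DESeq2 table. Its mean normalized count over all libraries (deposited by the authors, a score here) was used. Its other 5 columns hold the authors' own comparison of PHF19-depleted with control cells (log2 fold change, standard error, statistic, p and adjusted p) and were not used. ChIP-seq reads were mapped by the authors to a joint human and fly genome (hg19 and dm3, Bowtie), and MACS called the peaks against a control. Lists as deposited hold positions and a score, with no tag counts, so the authors' minimum on tags was not applied and depth is unknown. Track headings read sh4 in the PHF19 list of shCT cells, and also in the MTF2 list that the labels name sh2, and the labels were followed. Mapper and caller versions were not given in the sources used here.

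Symbols were placed by GENCODE 44 on GRCh37 (23043 of 27348, those at 1 gene alone). Peaks counted at a gene with at least 1 bp of overlap. Sequences come from RefSeq (GRCh38.p14) and were matched to GRCh37. Levels per kb used the union of GENCODE exons, while the authors counted reads on RefSeq exons. Python 3.11.15, numpy 2.4.6, pandas 2.3.3, scipy 1.17.1 and matplotlib 3.10.9 were used, and overlaps were tested on simulated peaks (0 mismatches in 500 windows). Alternatives were other gene regions, overlaps, score minima, windows and lengths. Members and lists were chosen with earlier results of these data known. Named genes were the 6 members with their peaks, PHF19, MTF2, and up to 5 genes of each list by PHF19 score. Not analysed here were IgG and the PHF19 ChIP of sh1 and sh2. 1 fixed gene list is not reported here. Genes of like pattern could not be sought without values per library.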

Additional observations from a re-analysis of the deposited data

How the results depend on the processing

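The counts of genes with a peak kept their value with the promoter alone, with the longest coding transcript, with at least 50% of the peak inside the region, and with peaks at or above the median score. The longest transcript, the 50% overlap and the score minimum only narrow the region or the peaks. The counts of 0 in the shCT lists could not rise under them, so those settings do not check these counts. With the region widened by 10 kb on either side, 1 gene (ARAP1) had an MTF2 peak in shCT cells in place of 0, and 3 genes (DIRAS1, DIRAS2 and ARAP1) had one in sh2 cells in place of 1, while the PHF19 count remained 0; the wider region takes in the flanks described above. The bases under peaks, 0 for the shCT lists and 1653 for sh2, were the same under each alternative. These alternatives also only narrow the region or the peaks, so the 0 could not rise. Per kb of the longest coding transcript, ARAP1 had 390 and ARAP2 3.05, over 1.5 times their values per kb of all exons, and the order of the 6 genes was the same. The folds moved, with ARAP3 then 7.76-fold below ARAP1 and 16.5-fold above ARAP2, and DIRAS1 5.19-fold above DIRAS3. With a window of 20 kb, chosen after the data were seen, 1 gene (DIRAS1) had a PHF19 peak in place of 2. No paired analysis was possible because no values per library were used. Each list comes from 1 library, so its peaks have no replicate check, and no depth is known.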
